A study of Mus musculus with 24 samples.

Results

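The 10 genes described here make or carry pulmonary surfactant, or mark the alveolar type 2 cell that secretes it. They are the surfactant protein genes Sftpa1, Sftpb, Sftpc and Sftpd, the lipid transporter Abca3, the acyltransferase Lpcat1, the lamellar body protein Lamp3, the phosphate transporter Slc34a2 and the proteases Napsa and Ctsh. They were chosen by name: every transcript of the deposited table that carries the symbol was taken, and transcripts were summed to genes. All 10 symbols were found among the 45777 genes of the table, and all 10 were among the 19690 that passed the filter on low counts. The rule uses no measured value, but the members were chosen with earlier results of these data known.

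The libraries came from lung RNA of male wild-type C57BL/6J mice in 6 groups of 4. Young mice were between 8 and 12 weeks old and old mice between 22 and 24 months. In the ischemia groups the hilum of the left lung, that is, its artery, vein and bronchus, was closed for 60 min and then released, and tissue was taken after 1 h or 1 day of reperfusion. Sham groups of each age served as controls. The labels give the tissue as lung without naming the side or lobe, do not give the time after the sham operation, and do not state that each library is a separate animal, so p-values measure the spread between these libraries.

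Surfactant is a film of phospholipid and a few proteins that lowers surface tension in the alveolus. Alveolar type 2 cells assemble it in lamellar bodies, storage organelles related to lysosomes, and release it by exocytosis. The hydrophobic proteins B and C arise from larger precursors that proteases such as napsin A and cathepsin H trim, and the collectins A and D bind microbes and lipids in the airspace. Loss of surfactant protein B or of the ABCA3 transporter causes fatal respiratory failure in newborns, and a lack of functioning surfactant is a known feature of the lung after ischemia and reperfusion.

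The genes lie on separate chromosomes apart from 3 on chromosome 14, where Sftpa1 and Sftpd are near each other and Sftpc lies further along. On GRCm38 the deposited table places Sftpb at chr6:72304610-72314373, Sftpc at chr14:70520941-70524081, Abca3 at chr17:24351921-24410204, Slc34a2 at chr5:53049269-53071664 and Ctsh at chr9:90054267-90076095. RefSeq promoter sequences of GRCm38.p6, 250 bases before to 50 bases after the start of the gene, could be matched for 6 of the 10 genes. They are shown for Sftpb and Abca3, which rose most among the genes with a promoter sequence in young lungs at 1 day, for Slc34a2, which fell most at 1 h, and for Sftpa1, the only one of the 6 with a match to the letters CAAGTG. The windows are chr6:72304360-72304659 for Sftpb, chr17:24351773-24352072 for Abca3, chr5:53049103-53049402 for Slc34a2 and chr14:41131538-41131837 for Sftpa1, all on the plus strand, written 5′ to 3′. Capitals mark matches on either strand to CAAGTG, a sequence bound by NKX2 factors such as the alveolar regulator NKX2-1, and to TGTTTNC, the core bound by FOXA factors. Only these exact letters were searched, so shorter or varied sites, such as CAAGT in the Sftpb window, are not marked.
Sftpb: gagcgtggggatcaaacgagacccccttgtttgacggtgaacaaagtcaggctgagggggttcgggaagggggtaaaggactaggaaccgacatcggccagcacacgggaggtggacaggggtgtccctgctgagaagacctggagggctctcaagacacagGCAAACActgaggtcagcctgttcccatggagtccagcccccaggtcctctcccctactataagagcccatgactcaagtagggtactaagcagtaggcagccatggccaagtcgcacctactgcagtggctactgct
Abca3: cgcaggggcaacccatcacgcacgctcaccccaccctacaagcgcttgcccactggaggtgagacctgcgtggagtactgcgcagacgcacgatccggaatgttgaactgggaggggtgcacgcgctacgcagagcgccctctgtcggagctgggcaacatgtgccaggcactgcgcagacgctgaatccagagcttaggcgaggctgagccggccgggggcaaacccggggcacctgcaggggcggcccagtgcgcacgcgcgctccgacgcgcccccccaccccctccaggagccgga
Slc34a2: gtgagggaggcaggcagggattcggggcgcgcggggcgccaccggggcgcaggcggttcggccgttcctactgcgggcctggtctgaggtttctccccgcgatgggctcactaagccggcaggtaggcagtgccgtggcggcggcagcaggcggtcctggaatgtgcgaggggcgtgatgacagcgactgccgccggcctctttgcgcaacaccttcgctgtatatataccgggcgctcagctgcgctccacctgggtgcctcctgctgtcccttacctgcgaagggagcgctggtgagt
Sftpa1: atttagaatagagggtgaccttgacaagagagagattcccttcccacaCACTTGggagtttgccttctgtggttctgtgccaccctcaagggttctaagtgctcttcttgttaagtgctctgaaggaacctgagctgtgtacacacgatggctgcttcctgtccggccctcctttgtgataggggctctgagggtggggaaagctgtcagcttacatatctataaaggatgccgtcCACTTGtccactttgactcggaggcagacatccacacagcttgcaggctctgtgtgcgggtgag
Sftpb held 1 FOXA match from base -88 to -82 before its start, and Sftpa1 held NKX2 matches from -202 to -197 and from -14 to -9. Lamp3, whose promoter is not printed, held 2 FOXA matches, from -162 to -156 and from -92 to -86. A C/EBP palindrome, TTGCNNAA, was found in Slc34a2, from -48 to -41, and a TATA box, TATAAA, in Sftpa1, from -30 to -25. Of 32851 RefSeq promoters of this length, 13.6% held CAAGTG, 20.5% TGTTTNC, 10.8% TTGCNNAA and 13.6% TATAAA, so matches of these short letters are common and are given as a description only. Abca3 and Lpcat1 held none of the 4 in this window. The windows differed in base composition, from 43.7% GC in Lamp3 to 69.7% in Abca3, against a median of 52.7% over all promoters.

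Levels are given as CPM, each gene's share of the deposited read estimates of a library after TMM scaling of the totals, which ran from 27850677 to 44504824. Changes are log2 differences from edgeR's quasi-likelihood model with their standard error (SE), and a gene was called when its p, adjusted by Benjamini-Hochberg over all 19690 genes, was under 0.05. Young reperfused libraries differed from the rest in base composition: Spearman's rho across genes between GC content and level relative to the mean library lay between 0.333 and 0.484 at 1 h and between 0.223 and 0.486 at 1 day in these libraries, and between -0.387 and -0.0224 in the other 4 groups. Mitochondrial transcripts took 1.36% ± 0.194 (SD, n = 4) and 1.07% ± 0.297 of the estimated reads in those young groups, against group means of 2.86% to 3.82% elsewhere. All changes were therefore fitted a second time with each library's GC trend removed, over 17878 genes with a GC value. The 10 genes spanned 38.7% GC in Lamp3 to 58.2% in Sftpb, around a median of 50.7% over those genes. Among old libraries, replicate 3 at 1 day was the lowest of its group for 10 of the 10 genes and held the most T and B cell marker RNA of its group, a summed 3804 CPM against a lowest of 102. Most of that list's sum was the immunoglobulin gene Ighm, at 1037 ± 1741 CPM (SD, n = 4) in old 1 day beside a mean sum of 1150. The T cell gene Cd3e was at 5.2 ± 1.18 there. Old 1 h replicate 1 was the lowest of its group for 8 of the 10 and held the most neutrophil marker RNA, 7963 CPM against a lowest of 1937. Old sham replicate 4 was lowest for 10 of 10 and young sham replicate 4 for 8 of 10.

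In sham lungs these genes were among the abundant transcripts of the tissue. Together they took 2.34% ± 0.207 (SD, n = 4) of all estimated reads in young sham and 1.98% ± 0.261 in old sham. Per length, in TPM, the order in young sham was Sftpc at 31405 ± 2345, Sftpb at 5427 ± 631, Sftpa1 at 2580 ± 320, Sftpd at 1151 ± 139, Slc34a2 at 1055 ± 85.8, Napsa at 515 ± 33.4, Ctsh at 320 ± 54.1, Lamp3 at 293 ± 36, Lpcat1 at 222 ± 21.5 and Abca3 at 178 ± 15.5. Neighbours in that order were separated in every library except Sftpd with Slc34a2, Ctsh with Lamp3 and Lamp3 with Lpcat1, whose TPM ranges overlapped. At the head of the order Sftpc, Sftpb and Sftpa1 held their ranks in all 6 groups, but at the lower end Ctsh rose to the sixth place in old 1 day lungs, at 766 ± 77.6 TPM. Other markers of the type 2 cell, a list of 14 genes, summed to 7590 CPM in young sham (6463 to 8476) and 7308 in old sham (6027 to 8534). Most of these sums was Lyz2, which macrophages make as well, at means of 4129 and 4086 CPM. Cxcl15, the next of the list, averaged 914 and 1059 CPM. Marker transcripts of this cell type were thus present in the labelled tissue. In whole tissue, fewer type 2 cells and less RNA per cell cannot be told apart.

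The 10 genes did not move as a block in every comparison. All 10 estimates were below 0 in old lungs at 1 h, and 9 of 10 were above 0 from 1 h to 1 day in each age. From sham to 1 day 8 were above 0 in young and 6 in old lungs. In young lungs at 1 h, Lamp3 and Slc34a2 fell and no member rose, where 41.3% of all genes tested were called (21.2% higher, 20.1% lower). In old lungs at that time Sftpc, Lpcat1, Napsa and Slc34a2 fell and none rose (25.2% called, 12.6% lower). The CPM ranges of reperfused and sham libraries did not overlap for 3 members in young lungs, where 41.5% of all genes did not, and for 6 in old lungs (32.5% of all genes). At 1 day 6 of the 10 rose and none fell in young lungs (53.9% called, 27.9% higher and 26% lower), and 7 did not overlap (50.8% of all genes). In old lungs at 1 day Ctsh and Sftpd rose and Sftpc fell (36.3% called, 20% higher and 16.3% lower), and 2 did not overlap (32.2%). From 1 h to 1 day, 6 rose and none fell in young lungs (46.6% called, 24.5% higher), with 8 not overlapping (37.8%), and 6 rose and 1 fell in old lungs (45% called, 24.1% higher and 20.9% lower), with 1 not overlapping (37%). With the GC trend removed none rose and 3 fell in young lungs at 1 h (36.2% called, 17% higher and 19.1% lower) and none rose and 4 fell in old lungs (28.5% called, 14.6% lower). At 1 day 5 then rose and 1 fell in young lungs (50.3% called, 25.5% higher and 24.8% lower). The median log2 change of the 10 from sham was -0.22 in young and -0.48 in old lungs at 1 h, and 0.56 and 0.06 at 1 day, beside medians over all genes between -0.03 and 0.02. On a TPM scale, which carries no TMM correction, the median of all genes itself moved by -0.17 in young and -0.12 in old lungs at 1 h and -0.15 in young lungs at 1 day, beside -0.50, -0.67 and 0.33 for the 10. Without old 1 day replicate 3 and old 1 h replicate 1, a choice made after seeing the data, 4 members were called in old lungs at 1 h (20.5% of the 19931 genes then tested), 4 at 1 day (31.7%) and 9 between 1 h and 1 day (40%).

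**Figure D1:**
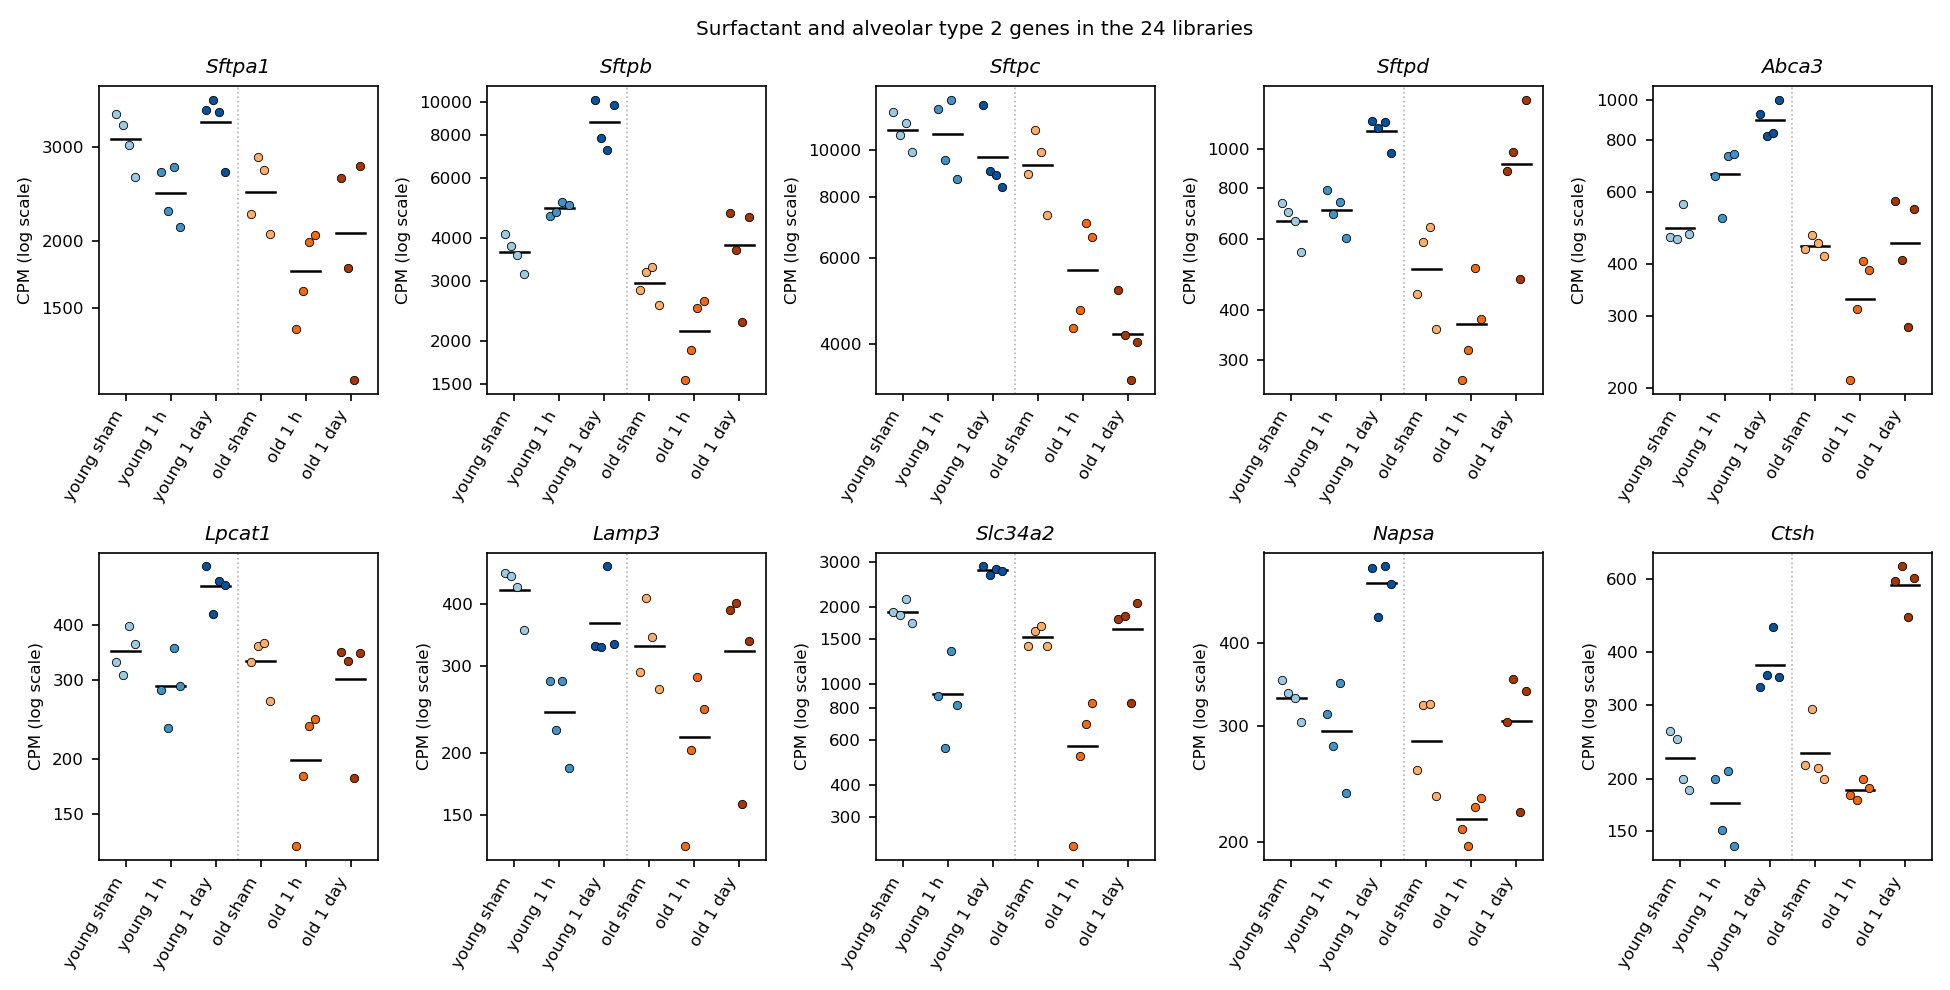
Level of each of the 10 genes in CPM (log axis) in the 24 libraries. Each point is a library, the black line is the mean of the 4 libraries of a group, and the dotted line separates young from old. Sftpb in young 1 day lungs reached 7227 to 10133 CPM, above every other library, and Sftpc in old 1 day lungs lay between 3380 and 5169.

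**Figure D2:**
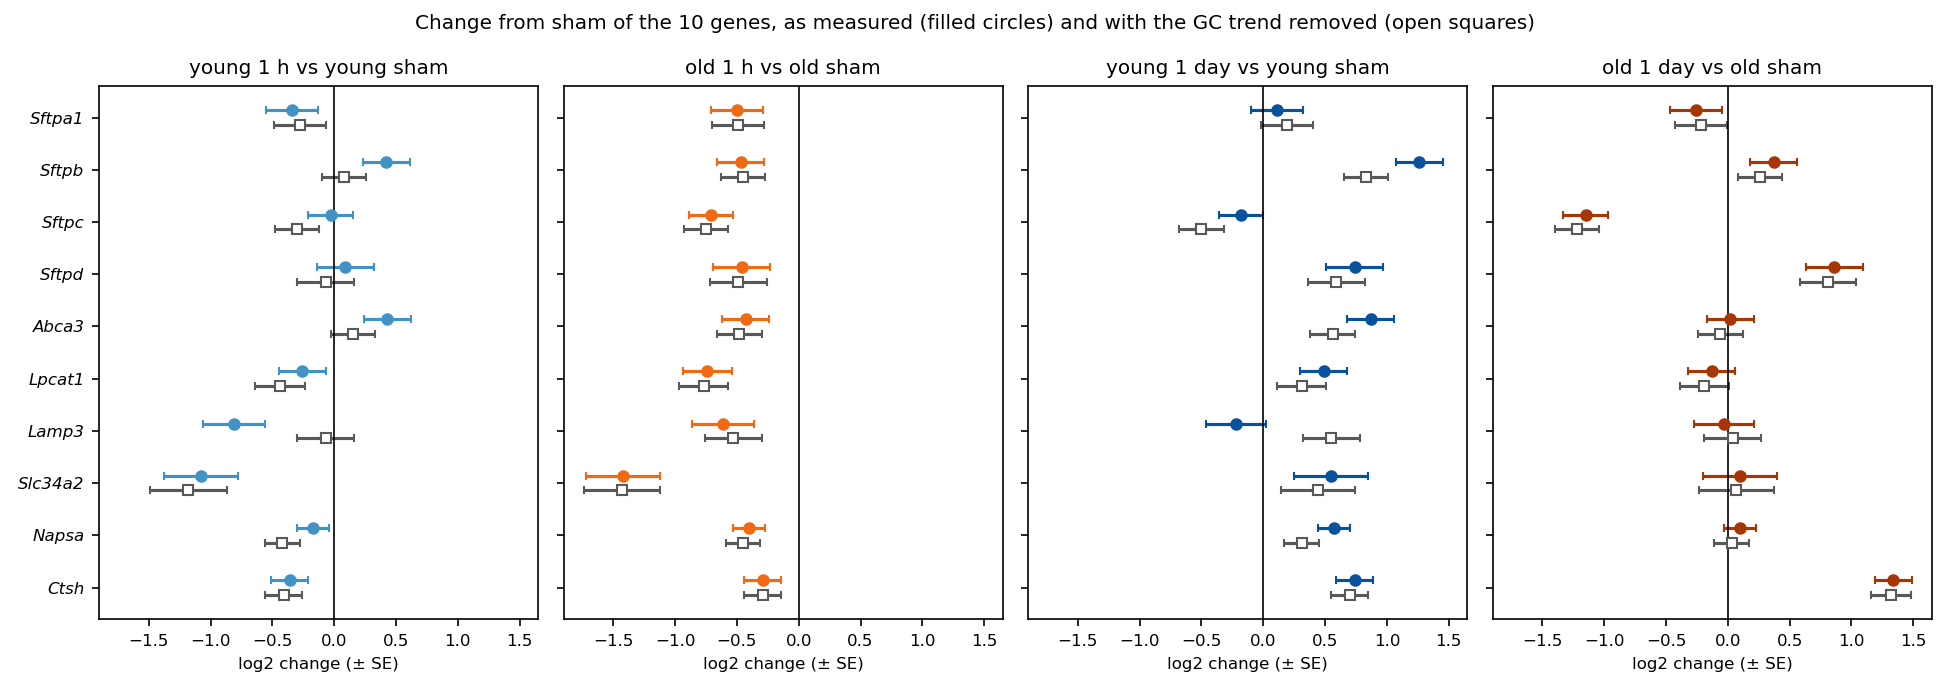
Log2 change from the sham group of the same age (± SE from the fit over 24 libraries) of the 10 genes, as measured (filled circles) and with each library's GC trend removed (open squares). In young lungs the GC-poor Lamp3 moved from -0.81 to -0.07 at 1 h and from -0.22 to 0.55 at 1 day when the trend was removed, while old values hardly shifted.

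Sftpb encodes surfactant protein B, the hydrophobic protein without which lamellar bodies do not form. Its CPM were 4117, 3794, 3577 and 3139 in the young sham libraries, 4659, 4781, 5106 and 5006 in young 1 h, and 10133, 7858, 7227 and 9813 in young 1 day. In old lungs they were 2826, 3194, 3294 and 2559 in sham, 1547, 1893, 2512 and 2621 at 1 h, and 4744, 3701, 2278 and 4606 at 1 day. All young 1 day libraries lay above all young sham and 1 h libraries, whereas the old 1 day libraries spread on both sides of old sham because replicate 3 was below every sham library. The rise in young lungs at 1 day was 1.26 ± 0.19 (2.4-fold, adjusted p = 8.53e-06), and 0.83 ± 0.18 (adjusted p = 0.000546) with the GC trend removed. In old lungs the change at 1 day was 0.37 ± 0.19 (adjusted p = 0.129), and without old 1 day replicate 3 it was 0.52 (adjusted p = 0.0195). At 1 h the estimates were 0.42 ± 0.19 in young lungs (adjusted p = 0.0778), where the ranges did not overlap, and -0.47 ± 0.19 in old lungs (adjusted p = 0.07). The old 1 h change was -0.59 (adjusted p = 0.0388) without old 1 h replicate 4. From 1 h to 1 day Sftpb rose by 0.84 ± 0.19 in young (adjusted p = 0.00094) and in old lungs (adjusted p = 0.00106).

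Sftpc encodes surfactant protein C, which among lung cells is made by type 2 cells and is the most used marker of them. In young lungs its CPM were 11965, 10695, 11342 and 9904 in sham, 12095, 9537, 12645 and 8730 at 1 h, and 12352, 9041, 8857 and 8396 at 1 day. These ranges overlapped throughout, and the changes from sham were -0.03 ± 0.18 (adjusted p = 0.915) and -0.18 ± 0.18 (adjusted p = 0.397). Removal of the GC trend moved the young 1 day value to -0.50 ± 0.18 (adjusted p = 0.0279), a fall. In old lungs CPM were 8900, 10982, 9909 and 7341 in sham, 4305, 4691, 7093 and 6639 at 1 h, and 5169, 4169, 3380 and 4044 at 1 day. Every old reperfused library lay below every old sham library. The falls were -0.71 ± 0.18 at 1 h (adjusted p = 0.00529) and -1.15 ± 0.18 at 1 day (2.22-fold lower, adjusted p = 4.11e-05), and with the trend removed -0.75 and -1.22. Between 1 h and 1 day old Sftpc changed by a further -0.44 ± 0.18 (adjusted p = 0.0471). That last call was lost without old 1 h replicate 3 or 4 or old 1 day replicate 2, 3 or 4, with values from -0.34 to -0.45 and adjusted p from 0.0762 to 0.154. Sftpc alone took 0.998% ± 0.151 (SD, n = 4) of all estimated reads in old sham and 0.43% ± 0.0828 in old 1 day.

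The collectins moved less alike. Sftpd, for surfactant protein D, read 733, 699, 665 and 556 CPM in young sham, 791, 692, 740 and 603 at 1 h and 1171, 1124, 1162 and 977 at 1 day. The old libraries read 439, 587, 640 and 358 in sham, 269, 318, 508 and 380 at 1 h and 880, 984, 477 and 1320 at 1 day. Sftpd rose at 1 day in both ages, by 0.74 ± 0.23 in young (adjusted p = 0.00973) and 0.86 ± 0.23 in old lungs (adjusted p = 0.00623), although old 1 day replicate 3 lay inside the sham range. The young call was lost with limma on log2(TPM + 1) (0.52, adjusted p = 0.0743) and with the GC trend removed together with a replicate block (0.59, adjusted p = 0.0576), and the old call when only the groups compared were fitted (0.83, adjusted p = 0.0601). It also rose between 1 h and 1 day, by 1.31 ± 0.23 in old (adjusted p = 0.000128) and 0.65 ± 0.23 in young lungs (adjusted p = 0.0252). The young value lost its call without young 1 h replicate 2 or 4 or young 1 day replicate 1 or 3 (0.58 to 0.64, adjusted p 0.0521 to 0.0717). Sftpa1, for surfactant protein A, was 2638 to 3471 CPM in young sham, 2125 to 2752 at 1 h and 2692 to 3682 at 1 day. In old lungs it was 2064 to 2877, 1369 to 2050 and 1098 to 2766. None of its changes from sham were called, and they ran from -0.50 ± 0.21 in old lungs at 1 h (adjusted p = 0.0832) to 0.11 ± 0.21 in young lungs at 1 day (adjusted p = 0.687).

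Club cells of the airway also make Sftpb, Sftpd and Sftpa1, and their markers were followed beside them. The 12 markers of club and secretory airway cells summed to 23789 CPM in young sham (20878 to 27136), 30771 in young 1 h (21257 to 37733) and 17237 in young 1 day (12310 to 20715). In old lungs the sums were 25325 (20774 to 31462), 28825 (25804 to 31232) and 14435 (11318 to 17236). At 1 day 1 of the 12 rose and 4 fell in young lungs (median -0.14, with 26% of all genes lower) and 1 rose and 5 fell in old lungs (median -0.55, with 16.3% lower). Among those that fell in old lungs were the club cell monooxygenase Cyp2f2 at -2.29 ± 0.33 (adjusted p = 1.85e-05) and the secretoglobin Scgb3a2 at -2.52 ± 0.45 (adjusted p = 0.000219). Scgb1a1, the defining secretoglobin, was abundant in all groups, at mean CPM from 9985 to 17871. The part of airway cells in the values of the 3 shared genes was not tested.

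Abca3 and Lpcat1 serve the lipid side. ABCA3 pumps phospholipid into the lamellar body, and LPCAT1 remodels phosphatidylcholine into its surface-active, dipalmitoylated form. Abca3 was at 466, 461, 561 and 474 CPM in young sham, 655, 519, 731 and 743 at 1 h and 929, 821, 835 and 1002 at 1 day. Young 1 day libraries stood apart from young sham and from young 1 h, and the rise from sham at 1 day was 0.87 ± 0.19 (1.83-fold, adjusted p = 0.000516) or 0.56 ± 0.18 (adjusted p = 0.0152) with the GC trend removed. Old Abca3 read 435, 471, 451 and 420 in sham, 210, 311, 407 and 388 at 1 h and 569, 410, 282 and 546 at 1 day. All old 1 h libraries were below the sham libraries, yet the change was not called (-0.43 ± 0.19, adjusted p = 0.0962), and at 1 day it was 0.02 ± 0.19 (adjusted p = 0.935). In young lungs the 1 h estimate was 0.43 ± 0.19 (adjusted p = 0.0695), or 0.15 ± 0.18 (adjusted p = 0.571) with the GC trend removed, and as measured without young 1 h replicate 2 it was 0.53 (adjusted p = 0.0371). From 1 h to 1 day old Abca3 changed by 0.46 ± 0.19 (adjusted p = 0.0523), and it was called without old 1 h replicate 3 or 4 or old 1 day replicate 3 (0.53 to 0.61, adjusted p 0.00779 to 0.0457).

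Lpcat1 ran at 329, 308, 397 and 362 CPM in young sham, 285, 234, 355 and 291 at 1 h and 541, 422, 502 and 492 at 1 day. In old lungs it ran at 330, 359, 364 and 270 in sham, 127, 183, 237 and 246 at 1 h and 348, 331, 181 and 346 at 1 day. The old 1 h libraries were all below the old sham libraries, a fall of -0.74 ± 0.20 (1.67-fold, adjusted p = 0.00792), and by 1 day the difference from sham was -0.13 ± 0.19 (adjusted p = 0.625). In young lungs Lpcat1 rose at 1 day by 0.49 ± 0.19 (adjusted p = 0.0391), with no overlap with sham. That call did not hold with the GC trend removed (0.31 ± 0.20, adjusted p = 0.202), nor without young sham replicate 1, 2 or 4 or young 1 day replicate 1, 3 or 4 (0.42 to 0.49, adjusted p 0.069 to 0.106). From 1 h to 1 day Lpcat1 rose by 0.75 ± 0.20 in young (adjusted p = 0.00349) and 0.60 ± 0.20 in old lungs (adjusted p = 0.0153). The old value was not called without old 1 h replicate 1 or 2 or old 1 day replicate 1 or 4 (0.41 to 0.54, adjusted p 0.0541 to 0.0792).

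Slc34a2, the sodium-phosphate cotransporter of the apical membrane of type 2 cells, showed the largest change at 1 h of the 10 genes in each age. It measured 1911, 1869, 2145 and 1740 CPM in young sham, 895, 561, 1349 and 825 at 1 h and 2891, 2678, 2834 and 2782 at 1 day. Old libraries measured 1407, 1618, 1691 and 1407 in sham, 230, 518, 693 and 844 at 1 h and 1790, 1843, 840 and 2072 at 1 day. Both 1 h groups lay wholly below their sham groups. Slc34a2 fell by 1.08 ± 0.30 on the log2 scale in young (2.11-fold, adjusted p = 0.00628) and by 1.42 ± 0.30 in old lungs (2.68-fold, adjusted p = 0.00158), and it fell with the GC trend removed too, by 1.18 and 1.43. It then rose between 1 h and 1 day by 1.62 ± 0.30 in young (adjusted p = 0.00019) and 1.52 ± 0.30 in old lungs (adjusted p = 0.000396), and its 1 day values differed from sham by 0.55 ± 0.30 (adjusted p = 0.128) and 0.10 ± 0.30 (adjusted p = 0.827). The young 1 day libraries nevertheless all exceeded the young sham libraries. Its fall at 1 h differed between ages by -0.34 ± 0.42 (adjusted p = 0.647).

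Lamp3 encodes the lysosome-associated membrane protein of the lamellar body, DC-LAMP, and is made by mature dendritic cells as well. CPM were 461, 454, 431 and 354 in young sham, 280, 223, 280 and 187 at 1 h and 328, 327, 475 and 331 at 1 day. Old CPM were 291, 410, 342 and 269 in sham, 130, 203, 284 and 245 at 1 h and 388, 401, 158 and 336 at 1 day. As measured Lamp3 fell in young lungs at 1 h, by 0.81 ± 0.25 on the log2 scale (adjusted p = 0.0116), with no overlap between the groups. It has the lowest GC content of the 10 genes, and with the GC trend removed the young 1 h change was -0.07 ± 0.23 (adjusted p = 0.836) and the young 1 day change turned from -0.22 ± 0.24 (adjusted p = 0.474) to a rise of 0.55 ± 0.23 (adjusted p = 0.0492). In old lungs the 1 h change was -0.61 ± 0.25 (adjusted p = 0.0752) as measured and -0.53 ± 0.23 (adjusted p = 0.0869) with the trend removed, and -0.77 (adjusted p = 0.0382) as measured without old 1 h replicate 3. From 1 h to 1 day old Lamp3 changed by 0.57 ± 0.25 (adjusted p = 0.0623), with calls without old 1 h replicate 3 (0.71, adjusted p = 0.0361) or old 1 day replicate 3 (0.78, adjusted p = 0.00569). The 10 mature dendritic cell markers summed to 202 CPM in young sham (171 to 241), 342 in young 1 h (337 to 354), 210 in young 1 day (191 to 228), 180 in old sham (range 143 to 222), 299 at 1 h (range 264 to 372) and 193 at 1 day (range 164 to 208). Of the 10 markers, 4 rose and none fell at 1 h in each age, beside 21.2% of all genes higher in young and 12.6% in old lungs. The part of dendritic cells in the Lamp3 values was not tested.

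The proteases differed from each other. Napsa encodes napsin A, an aspartic protease of the lamellar body that cleaves the surfactant protein B and C precursors. Its CPM were 352, 336, 331 and 304 in young sham, 313, 279, 348 and 237 at 1 h and 520, 438, 523 and 492 at 1 day, so the 1 day libraries stood above all others of that age. At 1 h the young change was -0.17 ± 0.13 (adjusted p = 0.332) as measured and -0.42 ± 0.14 (adjusted p = 0.0232), a fall, with the GC trend removed. Napsa rose in young lungs at 1 day by 0.57 ± 0.13 (adjusted p = 0.000987), but by 0.31 ± 0.14 (adjusted p = 0.0729) with the GC trend removed, which is not a call. In old lungs CPM were 257, 322, 324 and 235 in sham, 209, 197, 226 and 233 at 1 h and 304, 353, 222 and 339 at 1 day. The old 1 h libraries were all below sham, a fall, log2 change -0.40 ± 0.13 (1.32-fold lower, adjusted p = 0.0334). That call was lost without old sham replicate 2 or 3 or old 1 h replicate 1 or 2, at -0.33 to -0.38 with adjusted p from 0.0785 to 0.115. Napsa rose from 1 h to 1 day in both ages, by 0.74 ± 0.13 in young (adjusted p = 0.000119) and 0.49 ± 0.13 in old lungs (adjusted p = 0.00466).

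Ctsh, for cathepsin H, a lysosomal cysteine protease that trims the surfactant protein B precursor and is also made by macrophages, rose at 1 day in both ages. Its CPM were 260, 249, 200 and 188 in young sham, 200, 151, 209 and 138 at 1 h and 330, 354, 461 and 350 at 1 day. In old lungs they were 215, 293, 212 and 199 in sham, 183, 178, 200 and 190 at 1 h and 593, 641, 485 and 601 at 1 day. Every 1 day library exceeded every sham and 1 h library of its age, and every old 1 day library exceeded every young 1 day library. The rises were 0.74 ± 0.15 in young (1.67-fold, adjusted p = 0.000242) and 1.34 ± 0.15 in old lungs (2.52-fold, adjusted p = 9.48e-07), and 0.70 and 1.32 with the GC trend removed. At 1 h the young change was -0.36 ± 0.15 (adjusted p = 0.0539) as measured and -0.41 ± 0.15 (adjusted p = 0.0398) with the trend removed. It was called as measured without young sham replicate 3 or 4 or young 1 h replicate 1 or 3 (-0.44 to -0.48, adjusted p 0.0183 to 0.0379). Markers of monocytes and recruited macrophages also rose from sham to 1 day, 10 of 12 in each age with none lower, led by Lgals3, Cd68, Arg1 and Gpnmb. Over all genes 27.9% were higher in young and 20% in old lungs. Their sum went from 1195 CPM (991 to 1384) in young sham to 4116 (2836 to 5414) in young 1 day, and from 1030 (882 to 1214) in old sham to 2902 (2330 to 4089) in old 1 day. At 1 h the marker sum averaged 1659 CPM in young and 1448 in old lungs, above sham. At 1 day Fn1 alone averaged 2333 CPM in young and 1292 in old lungs, a large part of this sum. The 10 alveolar macrophage markers summed to 581 CPM in young sham and 821 in young 1 day, and to 485 in old sham and 893 in old 1 day (525 to 1655). The lowest group mean among the 12 markers of monocytes and recruited macrophages was 1.22 CPM, for Arg1 in young 1 h. The part of macrophages in the Ctsh values was not tested.

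Age made no called difference in sham lungs. Of the 10 genes none was called between old and young sham (2.31% of all genes called, 1.09% higher and 1.22% lower), with 9 of 10 estimates below 0 and a median of -0.27. At 1 h 6 were lower in old than in young lungs and none was higher (42% called, 21.5% lower; 6 did not overlap, against 39.4% of all genes), and at 1 day 7 were lower and Ctsh alone was higher (50.2% called, 25.1% higher and 25.1% lower; 7 did not overlap, against 37.7%). At 1 day the largest differences as measured were in Sftpc (-1.21 ± 0.18, adjusted p = 1.17e-05), Sftpb (-1.19 ± 0.19, adjusted p = 2.55e-05) and Abca3 (-0.99 ± 0.19, adjusted p = 0.000188). Sftpd differed by -0.28 ± 0.23 (adjusted p = 0.334). Ctsh was higher in old lungs by 0.63 ± 0.15 (adjusted p = 0.00123). At 1 h Sftpb differed by -1.19 ± 0.19 (adjusted p = 4.16e-05), Abca3 by -1.01 ± 0.19 (adjusted p = 0.000225), Sftpd by -0.94 ± 0.23 (adjusted p = 0.00261) and Sftpc by -0.92 ± 0.18 (adjusted p = 0.000292). With the GC trend removed 6 members were lower at 1 h (33.2% called, 16.9% lower) and 7 lower and 1 higher at 1 day (44.2% called, 22.8% lower and 21.4% higher), but Lamp3 and Sftpa1 took the places of Lpcat1 and Napsa at 1 h, and Lamp3 that of Slc34a2 at 1 day. Lamp3 then differed by -0.87 ± 0.23 at 1 h (adjusted p = 0.00634), the largest of the 10, and by -0.93 ± 0.23 at 1 day (adjusted p = 0.00266). With the trend removed Sftpc was at -0.97, Sftpb at -0.85 and Abca3 at -0.76 at 1 day, and Sftpb was at -0.82 at 1 h. As measured, the 1 h call of Napsa was lost without young 1 h replicate 3 (-0.35, adjusted p = 0.0501), that of Lpcat1 without young 1 h replicate 3 or old 1 h replicate 1 or 2 (-0.38 to -0.52, adjusted p 0.0687 to 0.11), the 1 day call of Slc34a2 was lost without young 1 day replicate 1, 3 or 4 or old 1 day replicate 3 (-0.58 to -0.80, adjusted p 0.053 to 0.109), and Slc34a2 was called at 1 h, where it differed by -0.67 ± 0.30 (adjusted p = 0.0767), without young 1 h replicate 2 (-0.84, adjusted p = 0.0335) or old 1 h replicate 4 (-0.92, adjusted p = 0.0242).

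The change from sham itself was then compared between the ages, as an interaction in the same model. At 1 h Sftpb (-0.89 ± 0.26, adjusted p = 0.0232) and Abca3 (-0.87 ± 0.27, adjusted p = 0.0276) had a lower change in old than in young lungs, 2 of the 10 beside 17.5% of all genes (8.07% higher, 9.46% lower). Neither was called with the GC trend removed (-0.53 ± 0.25, adjusted p = 0.224, and -0.62 ± 0.26, adjusted p = 0.166), where 6.04% of all genes were. At 1 day Sftpc (-0.96 ± 0.25, adjusted p = 0.0059), Sftpb (-0.89 ± 0.26, adjusted p = 0.014) and Abca3 (-0.85 ± 0.27, adjusted p = 0.0194) had a lower change in old lungs and Ctsh a higher (0.60 ± 0.21, adjusted p = 0.0339), 4 of the 10 beside 30.3% of all genes (15.2% higher, 15.2% lower). With the GC trend removed the difference in Sftpc was -0.73 ± 0.26 (adjusted p = 0.0461) and that in Ctsh 0.63 ± 0.22 (adjusted p = 0.0413), while Sftpb was at -0.56 ± 0.25 (adjusted p = 0.108) and Abca3 at -0.61 ± 0.26 (adjusted p = 0.0936). The GC trend separates the young reperfused groups from the others, so the age difference and the trend cannot be told apart in the as-measured values. Sftpc and Abca3 kept their 1 day calls without any single library, as did Sftpb, but the Ctsh call was lost without any one of young sham 1 or 2, young 1 day 1, 2 or 4, old sham 1, 3 or 4, or old 1 day 1, 2 or 4 (0.50 to 0.57, adjusted p 0.053 to 0.0926). At 1 h the Sftpb call was lost without young sham 4, old sham 3 or old 1 h 1 or 2 (-0.75 to -0.83, adjusted p 0.0543 to 0.0586). The 1 h Abca3 call was lost without young sham 1, 2 or 4, young 1 h 3 or 4, old sham 2 or 3, or old 1 h 1 or 2 (-0.69 to -0.84, adjusted p 0.052 to 0.061). Sftpc, at -0.68 ± 0.25 (adjusted p = 0.064) at 1 h, was called without young 1 h 4, old sham 4 or old 1 h 3 (-0.77 to -0.79, adjusted p 0.04 to 0.0481). Napsa, at -0.48 ± 0.19 (adjusted p = 0.0607) at 1 day, was called without young 1 day 2, old sham 4 or old 1 day 2 or 4 (-0.55 to -0.58, adjusted p 0.0292 to 0.044).

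Because the library total cancels in a ratio of genes, the other 9 members were also set against Sftpc within each library, a measure chosen after the values were seen. The ratio of Sftpb to Sftpc reads was 0.344, 0.355, 0.315 and 0.317 in young sham and 0.82, 0.869, 0.816 and 1.17 in young 1 day. In old lungs it was 0.318, 0.291, 0.332 and 0.349 in sham and 0.918, 0.888, 0.674 and 1.14 at 1 day. Sham and 1 day libraries did not overlap in either age, and the log2 ratio differed by 1.45 ± 0.13 (SE) in young and 1.47 ± 0.17 in old lungs. The old and young 1 day ratios differed by -0.03 ± 0.20 (exact permutation test, two-sided, p = 0.943). Abca3 over Sftpc differed from sham by 1.07 ± 0.16 in young and 1.12 ± 0.17 in old lungs at 1 day, and Napsa over Sftpc by 0.77 ± 0.12 and 1.24 ± 0.14. Slc34a2 over Sftpc fell in value at 1 h, from 0.175 to 0.0814 in young and 0.166 to 0.0925 in old lungs at the group mean, and stood at 0.293 and 0.374 at 1 day. Ctsh over Sftpc differed from sham by 0.94 ± 0.22 in young and 2.49 ± 0.12 in old lungs at 1 day. The 9 ratios share the denominator, and Sftpc itself fell in old lungs at 1 day, so their common sign there is no separate evidence for each gene. Sftpa1 (-0.26 ± 0.21), Lpcat1 (-0.13 ± 0.19) and Lamp3 (-0.03 ± 0.24) had estimates below 0 in their own levels in old lungs at 1 day. In young lungs at 1 day the Lamp3 ratio differed from sham by -0.03 ± 0.22, or 1.07 with the GC trend removed. Exact permutation tests of 4 against 4 libraries cannot go below p = 0.0286, which these non-overlapping comparisons reached, and after adjustment over the 63 tests made the smallest value was 0.0581, so none of the ratios passed the threshold.

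**Figure D3:**
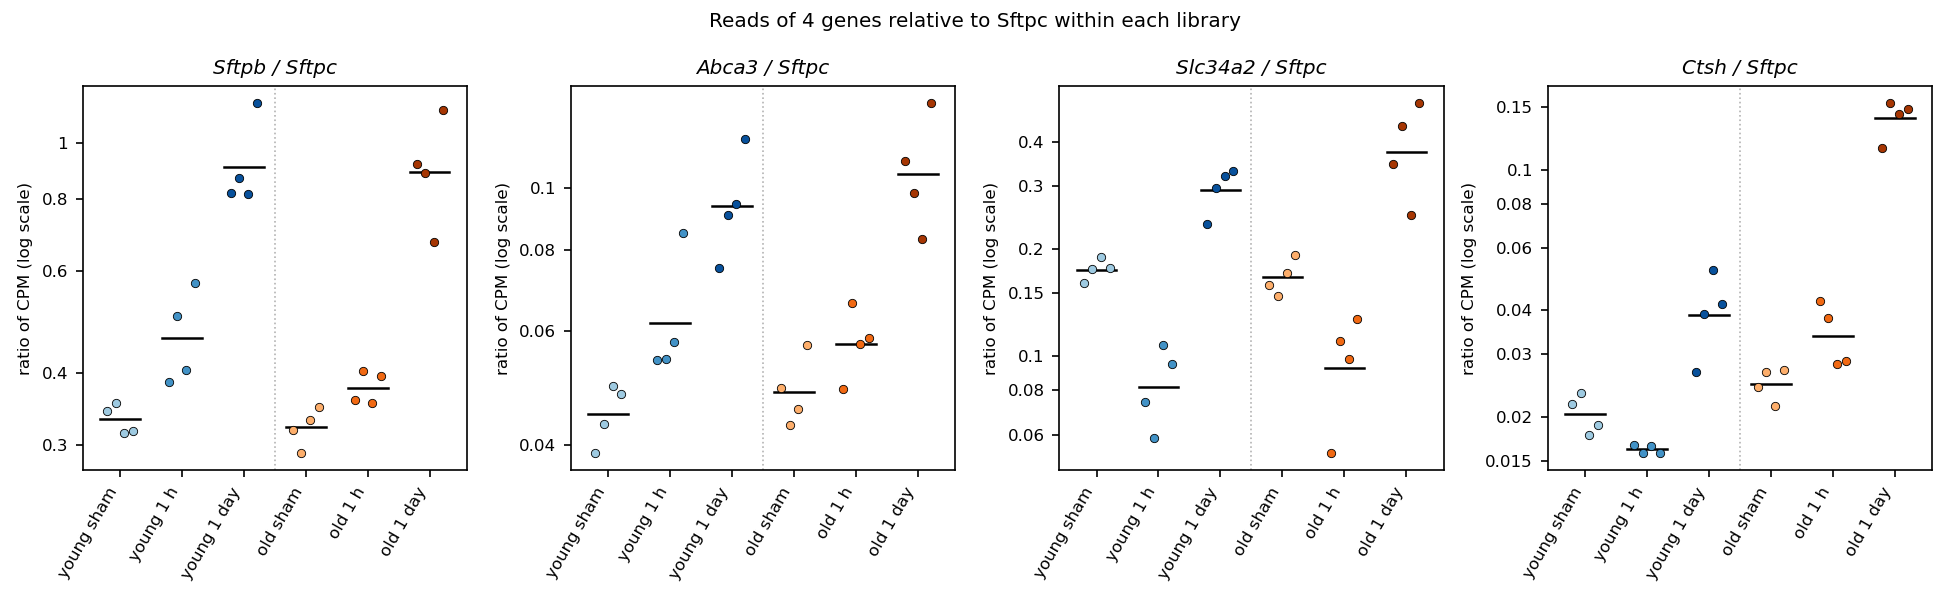
Reads of Sftpb, Abca3, Slc34a2 and Ctsh relative to Sftpc in the same library (log axis). Points are libraries, black lines are geometric means of 4 libraries, and the dotted line separates young from old. The ratio of Sftpb to Sftpc was 0.332 and 0.322 at the mean in young and old sham and 0.908 and 0.889 in young and old 1 day, while the ratio of Ctsh to Sftpc reached 0.139 in old 1 day against 0.0388 in young 1 day.

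For genes with several annotated transcripts 1 transcript carried most of the gene sum in every library, with an exception in Abca3. The main transcript held 80% to 85.1% of the Sftpb estimate, 94.7% to 99.2% of that of Ctsh, at least 88% of that of Lpcat1 and at least 89.6% of that of Slc34a2. For Abca3 an overlapping non-coding model took between 3.46% and 53.7% of the estimate and the main coding model between 42.9% and 90.5%, so only the gene sum is used. Sftpa1, Sftpc, Sftpd, Napsa and Lamp3 had a single transcript each.

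The wider surfactant programme was followed in lists of other genes. Values of single genes on these and the epithelial lists are as measured unless stated. Age differences given only as measured cannot be told apart from the GC trend. Of 14 other type 2 markers, none rose and 4 fell in old lungs at 1 h (median log2 change -0.55, beside 0.00 for all genes, of which 12.6% were higher and 12.6% lower). In young lungs 1 rose and none fell (median -0.03, with 21.2% of all genes higher and 20.1% lower). The 4 that fell in old lungs were the lysosomal membrane protein Dram1 (-0.71 ± 0.16, adjusted p = 0.00241), the lysozyme Lyz1 (-1.21 ± 0.29, adjusted p = 0.00372), Lgi3 (-0.90 ± 0.27, adjusted p = 0.0181) and Mlc1 (-0.63 ± 0.22, adjusted p = 0.0416). At 1 day 4 rose and 2 fell in young lungs (median 0.41, with 27.9% of all genes higher and 26% lower). In old lungs 2 rose and 6 fell (median -0.40, with 20% of all genes higher and 16.3% lower). The alarmin Il33 rose in both ages at 1 day (1.07 ± 0.26, adjusted p = 0.00144, and 1.60 ± 0.26, adjusted p = 7.76e-05), and complement Hc fell in old lungs (-1.72 ± 0.26, adjusted p = 3.29e-05). The change from sham at 1 day was lower in old lungs for 5 of the 14, among them Lgi3 (-1.94 ± 0.38, adjusted p = 0.000831) and the lysozymes Lyz2 (-1.10 ± 0.23, adjusted p = 0.00108) and Lyz1 (-1.44 ± 0.40, adjusted p = 0.00992), and for 7 of 14 with the GC trend removed. Over all genes 15.2% had a lower change, and 11.3% with the GC trend removed. Lyz1 and Lyz2 are close copies whose reads can be shared, and macrophages make Lyz2 as well.

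Of 12 transcription factors of the type 2 lineage, 5 rose and 4 fell in young and 3 rose and 4 fell in old lungs at 1 h. Over all genes 21.2% were higher and 20.1% lower in young, and 12.6% and 12.6% in old lungs. Klf5, an epithelial injury factor, rose by 1.37 ± 0.14 in each age (adjusted p = 2.04e-07 in young and 1.02e-06 in old), and Elf3 by 1.50 ± 0.26 (adjusted p = 0.000101) and 2.21 ± 0.27 (adjusted p = 6.31e-06). In old lungs at 1 h Nkx2-1, the master regulator of surfactant genes, fell by 1.03 ± 0.15 on the log2 scale (adjusted p = 3.74e-05), from a mean of 144 to 70.6 CPM, and Foxa2 fell by 1.10 ± 0.14 (adjusted p = 6.49e-06). Both fell in young lungs at 1 h too, Nkx2-1 by 0.62 ± 0.15 (adjusted p = 0.00199), from a mean of 154 to 100 CPM, and Foxa2 by 0.58 ± 0.13 (adjusted p = 0.00141), values given beside the old ones although the naming rule did not pick them. The age difference in these changes was not called (Nkx2-1 -0.41 ± 0.21, adjusted p = 0.192, and Foxa2 -0.52 ± 0.19, adjusted p = 0.0653), and it was -0.12 and -0.14 with the GC trend removed. Both rose again from 1 h to 1 day, Nkx2-1 by 0.75 ± 0.15 in young (adjusted p = 0.00031) and 1.18 ± 0.15 in old lungs (adjusted p = 3.29e-06), and Foxa2 by 0.92 ± 0.14 (adjusted p = 1.44e-05) and 1.17 ± 0.14 (adjusted p = 1.22e-06). The lipogenic regulator Srebf1 rose in young lungs at 1 day by 0.71 ± 0.11 (adjusted p = 1.59e-05), or 0.28 (adjusted p = 0.0215) with the GC trend removed. As measured it was lower in old than in young lungs at 1 day by -0.88 ± 0.11 (adjusted p = 2.44e-06).

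The list of surfactant lipid synthesis and transport held 24 genes. Of these, 13 rose and 3 fell in young and 7 rose and 1 fell in old lungs at 1 h, and 11 rose and 8 fell in young and 9 rose and 4 fell in old lungs at 1 day, with medians of 0.39, 0.18, 0.28 and 0.25. Over all genes the shares higher and lower were 21.2% and 20.1%, 12.6% and 12.6%, 27.9% and 26%, and 20% and 16.3% in the same order. With the GC trend removed 10 rose and 9 fell in young lungs at 1 day. At 1 day the lipid droplet protein Plin2 rose by 1.95 ± 0.20 in young (adjusted p = 4.76e-08) and 2.04 ± 0.20 in old lungs (adjusted p = 1.6e-07), and the choline phosphotransferase Chpt1, which makes phosphatidylcholine, fell by 1.32 ± 0.11 (adjusted p = 3.35e-09) and 0.85 ± 0.11 (adjusted p = 5e-06) on the log2 scale. Fatty acid synthase Fasn was lower as measured in old than in young lungs at 1 day, by -1.45 ± 0.21 (adjusted p = 1e-05). Most of these genes are used by many cell types of the lung. Of 20 genes for processing of surfactant proteins and traffic of lamellar bodies, 5 rose and 4 fell in young and 3 rose and 3 fell in old lungs at 1 h, and 10 rose and 5 fell in young and 5 rose and 2 fell in old lungs at 1 day. For these and the clearance genes below, the shares over all genes are those given for the lipid list. The purinergic receptor P2ry2, through which ATP triggers surfactant secretion, rose at 1 h by 1.93 ± 0.22 in young (adjusted p = 5.15e-07) and 1.47 ± 0.21 in old lungs (adjusted p = 3.9e-05). Of 13 genes for surfactant clearance, 7 rose and 2 fell in young and 7 rose and 3 fell in old lungs at 1 day, led by the scavenger receptor Msr1 at 3.59 ± 0.37 (adjusted p = 7.28e-08) and 3.42 ± 0.36 (adjusted p = 5.86e-07). As measured, the lysosomal phospholipase Pla2g15 rose in young lungs at 1 day by 0.89 ± 0.12 (adjusted p = 2.97e-06), and its change was lower in old lungs by -0.87 ± 0.17 (adjusted p = 0.000886).

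Other epithelial lists show how far the 10 genes followed the epithelium as a whole. Over all genes 21.2% were higher and 20.1% lower in young and 12.6% and 12.6% in old lungs at 1 h. At 1 day the shares were 27.9% and 26% in young and 20% and 16.3% in old lungs. All 14 alveolar type 1 markers fell in old lungs at 1 h (median -0.64), among them Cldn18 (-0.79 ± 0.12, adjusted p = 8.31e-05) and Ager (-0.68 ± 0.14, adjusted p = 0.000952), whereas in young lungs 1 rose and 2 fell (median -0.12). Summed type 1 markers averaged 8707 CPM in old sham lungs (range 7916 to 9831) and 5635 CPM at 1 h (range 5014 to 6684). Transitional epithelial markers, which type 2 cells switch on while becoming type 1 cells, rose in 10 of 12 in young and 9 of 12 in old lungs at 1 h, and in 10 and 11 of 12 at 1 day. Among them Krt8 rose at 1 h by 2.23 ± 0.18 (adjusted p = 8.72e-09) and 1.63 ± 0.17 (adjusted p = 1.11e-06), and Cldn4 by 3.55 ± 0.24 (adjusted p = 9.45e-10) and 2.89 ± 0.23 (adjusted p = 4.25e-08). Fn1 and Lgals3 of this list are also on the list of monocytes and recruited macrophages. Fn1 alone averaged 2333 CPM in young 1 day and 1292 in old 1 day, beside list sums of 5097 and 3885. Which cells made these transcripts was not tested. Of 10 general epithelial markers 8 rose and none fell in young and 5 rose and 1 fell in old lungs at 1 h. Neutrophil markers rose in 10 of 10 in old and 2 of 10 in young lungs at 1 h, and in 9 and none of 10 at 1 day. Summed neutrophil markers averaged 1045 CPM in old sham (lowest 919, highest 1240), 3991 at 1 h (lowest 1937, highest 7963) and 3154 at 1 day (lowest 1103, highest 6627), against 670, 1607 and 764 in the young groups. CPM are shares of a library, and the part of neutrophil RNA in the lower old values was not tested.

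**Figure D4:**
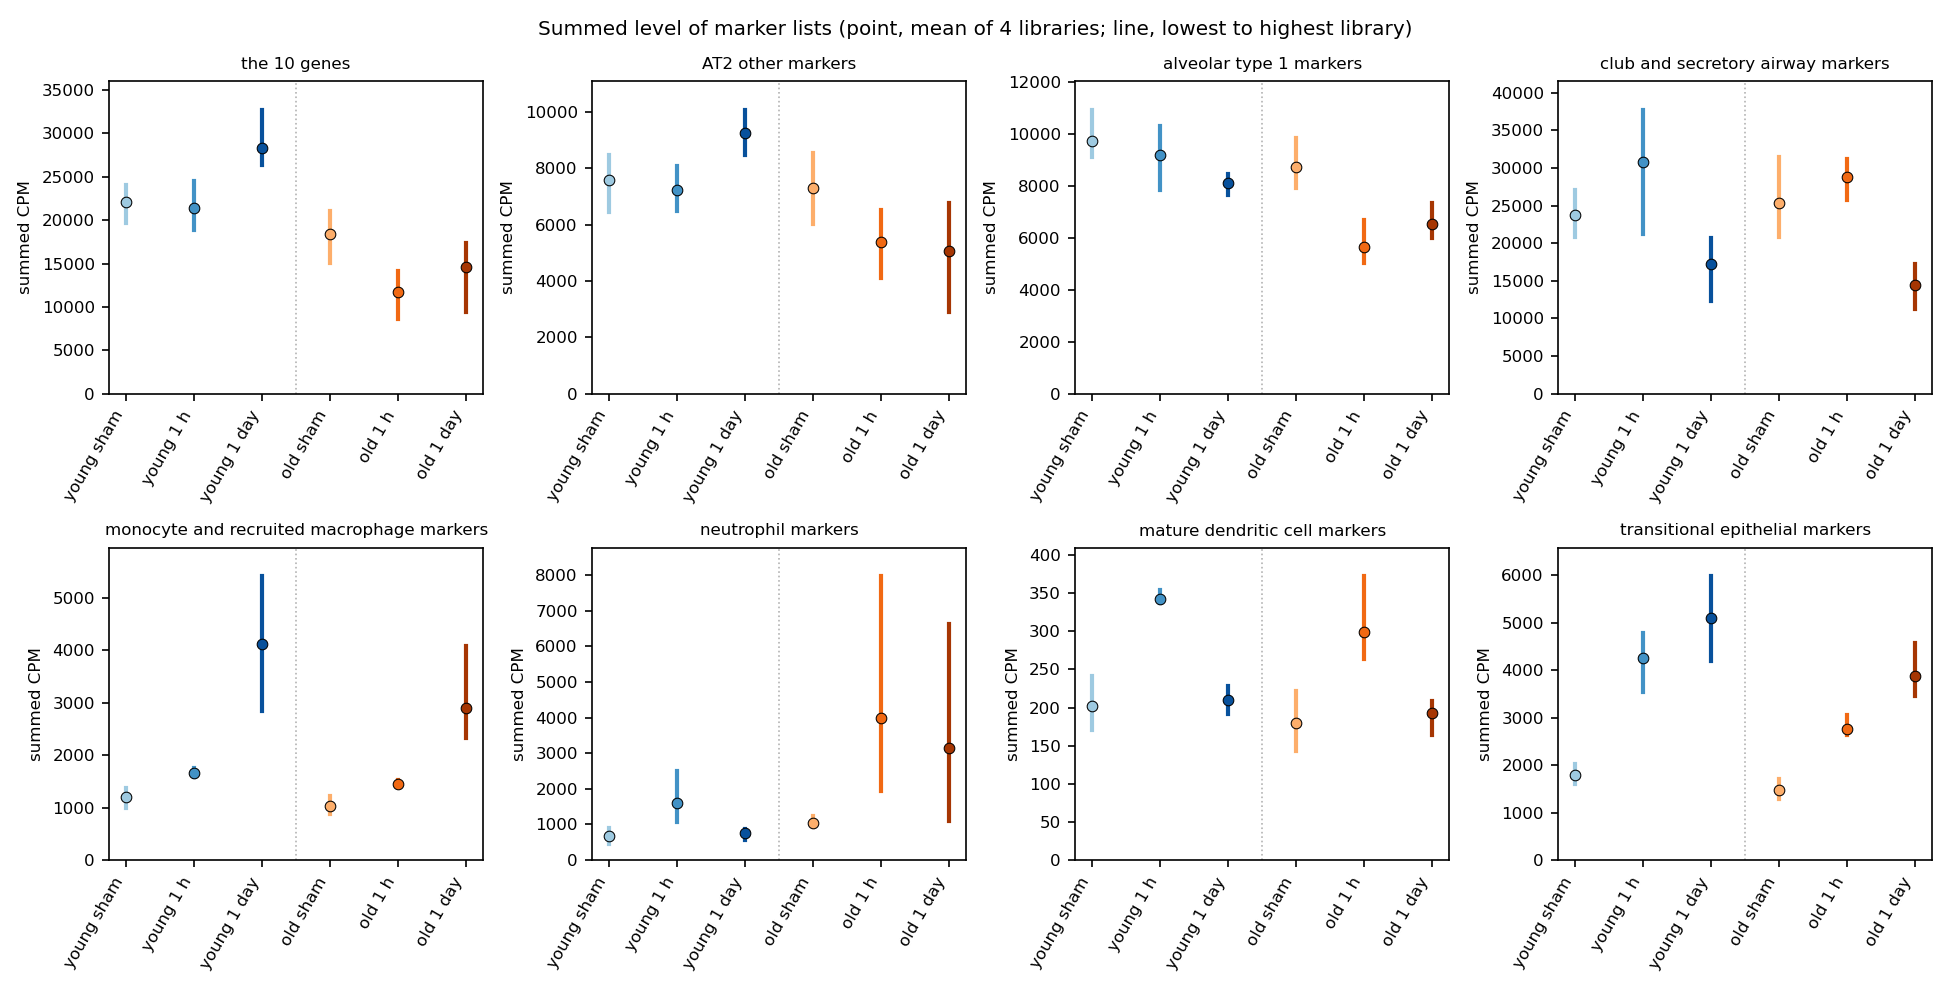
Summed CPM of the 10 genes and of 7 marker lists in the 6 groups. Points are means of 4 libraries and lines run from the lowest to the highest library. The sum of the 10 genes was 28292 in young 1 day and 14602 in old 1 day, while transitional epithelial markers were at 5097 and 3885 and neutrophil markers at 764 and 3154. Fn1, which is also on the macrophage list, averaged 2333 and 1292 of the transitional sums.

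Across the 24 libraries, the members were compared in likeness by the Pearson correlation of each gene's log2 CPM with the mean standardised log2 CPM of the other 9, as a description. Lpcat1 followed the others most closely (r = 0.95, n = 24 libraries), then Napsa (0.93) and Slc34a2 (0.89), while Sftpc (0.46) and Ctsh (0.33) followed least. Lamp3 went from 0.76 to 0.94 with the GC trend removed. Among 12650 other genes with a mean of at least 5 CPM, those most like the mean of the 10 included Dram1 (r = 0.98) and Mlc1 (0.97), both also on the list of other type 2 markers, then Rtkn, Myorg and Zdhhc3 (0.94 each) and B3gnt9, Etv5, Sgpp2 and Cd276 (0.92 each). With the GC trend removed Dram1 and Mlc1 led again, at 0.98 and 0.97 of 12451 genes, followed by Abcd3 (0.94) and Ptk7 and Gpsm2 (0.93 each). Libraries share group, depth and base composition, so these values hold no test.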

How the data were processed

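Polyadenylated lung RNA was sequenced from 24 libraries with a stranded kit, per the labels' protocols. HISAT2 and StringTie and the GRCm38/mm10 genome are named in the submitters' processing notes, without tool versions. The deposited table gives for each transcript the authors' estimated counts, FPKM and TPM. The estimated counts are whole numbers and were summed to genes here, the TPM were summed for levels per length, and the FPKM served only to check the counts. Duplicate libraries were looked for: the lowest chi-square per gene between libraries of a group was 13.9, so all were kept.

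Genes were filtered with edgeR 4.0.16 in R 4.3.3 (minimum count 10), scaled by TMM and tested with edgeR's robust quasi-likelihood test, two-sided, with 6 group means over all 24 libraries. Each p was adjusted by Benjamini-Hochberg over 19690 genes, or over the genes left in a refit; those of the ratios to Sftpc were adjusted over the ratio tests alone. The biological coefficient of variation was 23.2%. GC trends (a natural spline with 6 degrees of freedom per library, gene GC from GENCODE M21 transcripts of at least 200 bases) were removed through offsets over 17878 genes. limma 3.58.1 on log2(TPM + 1), DESeq2 1.42.0, other filters, a replicate block and the omission of each library were alternatives. Ratios to Sftpc and the omission of old 1 day replicate 3 with old 1 h replicate 1 were added after the values were seen. The script was tested on simulated data. Replicate numbers did not pair the libraries: over 60 same-numbered pairs the correlation of deviations was -0.334 to 0.304 (median -0.012).

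The members, the gene lists and the rule for named genes (up to 4 called genes per list and comparison) were chosen with earlier results of these data known. Some genes stand on more than 1 list. Some genes that this rule names are not reported here.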

Additional observations from a re-analysis of the deposited data

Results flagged for a closer look

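In 4 of the 60 sets of 4 libraries examined for the 10 genes, a single library stood far from the rest of its group by Dixon's criterion, which chance meets in about 1 of 20 sets. Sftpc was at 12352 CPM in young 1 day replicate 1, Abca3 at 561 CPM in young sham replicate 3, Lpcat1 at 181 CPM in old 1 day replicate 3 and Lamp3 at 475 CPM in young 1 day replicate 3.

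The change from sham differed between the ages, by edgeR's interaction term, in 6 cases. They were 2 of the 10 genes at 1 h, where 17.5% of all genes were called, and 4 of the 10 at 1 day, where 30.3% were. At 1 h the difference, old minus young, was -0.89 for Sftpb (adjusted p = 0.0232) and -0.87 for Abca3 (adjusted p = 0.0276). At 1 day it was -0.89 for Sftpb (adjusted p = 0.014), -0.96 for Sftpc (adjusted p = 0.0059), -0.85 for Abca3 (adjusted p = 0.0194) and 0.60 for Ctsh (adjusted p = 0.0339). Those of Sftpc and Ctsh at 1 day were also called with the GC trend removed, where 22.4% of all genes were. The Ctsh call at 1 day and both calls at 1 h were lost without some single libraries.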

How the results depend on the processing

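With the GC trend removed 6 of the 110 changes of the 10 genes took the other sign. In 1 of them either value was called: Lamp3 in young lungs at 1 day went from -0.22 to 0.55. The others were Lamp3 in the interactions at 1 h (0.20 to -0.46) and 1 day (0.19 to -0.52) and in old lungs at 1 day (-0.03 to 0.04), Sftpd in young lungs at 1 h (0.09 to -0.07) and Abca3 in old lungs at 1 day (0.02 to -0.06). The count of members called at 1 h went from 2 to 5 in young lungs when only the groups compared were fitted. Of these 5, 2 were rises, Sftpb (0.41, adjusted p = 0.00573) and Abca3 (0.42, adjusted p = 0.0149). The same kind of fit called a rise of Slc34a2 in young lungs at 1 day (0.54, adjusted p = 0.00042). With limma on log2(TPM + 1) the 1 h count went to 6 in young and from 4 to 10 in old lungs, all lower. On that scale the median of all genes moved by -0.17 and -0.12, and shares of all genes called in these fits are not given here. Members called for the age interaction at 1 h went from 2 to 0 with the GC trend removed, with or without a replicate block, and to 1 with limma, and at 1 day from 4 to 2 with the GC trend removed, with or without the block. The cause was not tested. Leaving out 1 library gave between 0 and 3 members for the interaction at 1 h. With the replicate block alone 108 of 110 changes kept direction and call, and Napsa in old lungs at 1 h (-0.39, adjusted p = 0.0507) and Lpcat1 in young lungs at 1 day (0.49, adjusted p = 0.05) lost it. With DESeq2 102 of 110 and with a filter of 1 CPM in 4 libraries 108 of 110 were the same in both respects. Calls named in the report were also lost in these fits. When only the groups compared were fitted, the old change from 1 h to 1 day lost Sftpc (adjusted p = 0.0905) and Lpcat1 (0.121), and the age comparisons lost Lpcat1 at 1 h (adjusted p = 0.0585) and Sftpa1 at 1 day (0.0649). With limma, Sftpc from 1 h to 1 day in old lungs (adjusted p = 0.149), Lpcat1 in young lungs at 1 day (0.299), Lpcat1 between ages at 1 h (0.0516), Slc34a2 between ages at 1 day (0.0706) and the Abca3 interactions at 1 h (0.0691) and 1 day (0.0557) were lost. Without a low-count filter Lpcat1 in young lungs at 1 day (adjusted p = 0.071), Slc34a2 between ages at 1 day (0.0588) and the Ctsh interaction at 1 day (0.0642) were lost.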
